A study of Mus musculus with 6 samples.

Results

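The interferon response and MHC class I genes are a set of 29 genes, chosen as sensors of viral RNA, interferon signalling proteins, interferon-stimulated effectors and the class I antigen presentation machinery. They were described in bulk RNA of the mouse ventromedial hypothalamus on Illumina bead arrays. Every probe whose platform symbol was one of these genes was taken: 28 genes had a probe, 50 probes in all, and Ifi44 had none that matched. A probe was called measured if 3 or more arrays gave it a detection p below 0.05, meaning a signal above background, which left 19 of the 29 genes, out of 11049 named genes measured. The control group held 3 RNA pools from Sirt1loxP/loxP mice and the SIRT1 deletion group 3 pools from Sf1-Cre; Sirt1loxP/loxP mice, all aged 16 weeks and on a mixed genetic background. The floxed Sirt1 allele was thus common to both groups, and the stated genotypes differed in the Cre, which acts in cells that express SF1. Without a group that carried the Cre alone, effects of the Cre and of SIRT1 loss cannot be told apart. No source used here gives the animals in a pool, their sex or whether pools shared litters. The p-values therefore cover only differences among the 6 pools, which may be technical.

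Type I interferons bind their receptor and activate transcription factors, among them STAT2 and IRF9, which enter the nucleus and act at the interferon-stimulated response element (ISRE) in promoters of target genes. Interferon-gamma is a strong inducer of guanylate-binding proteins, immunity-related GTPases, immunoproteasome subunits and MHC class I molecules, which display peptides to CD8+ T cells. In brain, microglia, endothelium and astrocytes as well as neurons can respond to interferon, and neurons are known for low resting levels of MHC class I.

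As a view of the control regions of these genes, RefSeq promoter windows of GRCm38.p6, from 250 bases before to 50 bases after the gene start, were searched on both strands for an ISRE core, GAAA followed by any 2 bases and GAAA again (on the other strand TTTC, 2 bases, TTTC). There were 28 windows for 24 of the 29 genes, since a gene can have several. The core was in 13 of the 28 windows (46.4%), 1 each of 13 genes, against 3.44% of 32851 windows of the same length over all genes. The shorter TTCNNNGAA, the core of the gamma-activated sequence, was in 5 of the 28 (17.9%) and in 8.30% of all windows. Such a match is a description of letters, not a bound site, and overlapping matches of 1 motif occurred (Isg15 had 3 and Gbp3 had 2). The windows that follow belong to genes whose values the results turn on, in lower case with each ISRE core in capitals. Those of Oasl2 and Psmb9 are given because they hold no match to these letters.
Gbp2 (chr3:142620413-142620712, plus strand): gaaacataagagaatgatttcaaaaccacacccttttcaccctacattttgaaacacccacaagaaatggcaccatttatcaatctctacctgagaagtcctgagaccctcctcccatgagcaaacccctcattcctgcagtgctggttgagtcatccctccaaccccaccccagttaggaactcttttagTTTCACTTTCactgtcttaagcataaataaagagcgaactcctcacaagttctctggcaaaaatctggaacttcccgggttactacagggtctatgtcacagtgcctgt
Ifit3 (chr19:34583279-34583578, plus strand): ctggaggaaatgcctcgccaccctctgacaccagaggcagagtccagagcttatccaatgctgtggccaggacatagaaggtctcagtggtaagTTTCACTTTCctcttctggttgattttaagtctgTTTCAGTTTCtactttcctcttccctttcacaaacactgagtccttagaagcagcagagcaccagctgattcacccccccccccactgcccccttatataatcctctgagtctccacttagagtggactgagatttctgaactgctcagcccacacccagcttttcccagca
Stat2 (chr10:128270248-128270547, plus strand): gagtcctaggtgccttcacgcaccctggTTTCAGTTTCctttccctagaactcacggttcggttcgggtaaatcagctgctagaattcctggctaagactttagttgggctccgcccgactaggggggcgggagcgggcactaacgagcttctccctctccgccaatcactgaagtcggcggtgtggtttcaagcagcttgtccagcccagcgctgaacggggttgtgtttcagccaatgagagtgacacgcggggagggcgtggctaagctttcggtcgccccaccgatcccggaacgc
B2m (chr2:122147437-122147736, plus strand): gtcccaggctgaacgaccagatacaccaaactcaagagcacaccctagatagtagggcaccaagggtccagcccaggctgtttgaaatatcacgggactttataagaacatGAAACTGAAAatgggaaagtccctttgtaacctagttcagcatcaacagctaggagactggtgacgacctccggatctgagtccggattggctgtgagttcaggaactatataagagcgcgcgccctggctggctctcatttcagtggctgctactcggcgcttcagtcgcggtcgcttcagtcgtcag
Oasl2 (chr5:114896684-114896983, plus strand): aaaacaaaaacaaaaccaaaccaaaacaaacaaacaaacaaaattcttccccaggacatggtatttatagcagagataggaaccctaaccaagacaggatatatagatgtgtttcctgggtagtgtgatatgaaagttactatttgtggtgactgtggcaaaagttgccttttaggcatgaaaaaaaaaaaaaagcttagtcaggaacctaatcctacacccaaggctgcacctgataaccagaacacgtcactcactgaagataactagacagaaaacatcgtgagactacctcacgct
Psmb9 (chr17:34187281-34187580, minus strand): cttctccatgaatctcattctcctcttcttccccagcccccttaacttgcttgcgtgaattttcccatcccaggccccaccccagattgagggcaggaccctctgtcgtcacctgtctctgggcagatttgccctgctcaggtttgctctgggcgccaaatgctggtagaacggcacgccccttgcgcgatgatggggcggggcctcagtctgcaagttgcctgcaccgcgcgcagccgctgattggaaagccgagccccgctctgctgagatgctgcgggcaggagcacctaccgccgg
On the strand of the gene, the core began 59 bases before the start of Gbp2, 156 and 122 bases before that of Ifit3, 222 before that of Stat2 and 139 before that of B2m. The Psmb9 window shared 275 bases with that of Tap1, which is read in the opposite direction from the same stretch.

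The 6 arrays detected between 20053 and 20611 probes each, and correlated at 0.991 to 0.995 with each other across features. On the first principal component (34.2% of the variance) SIRT1 deletion 2 and 3 lay at 16.0 and 15.1 and the other 4 pools between -14.9 and -3.44, so SIRT1 deletion 2 and 3 stood apart from SIRT1 deletion 1. Values are log2 normalised intensities, and on each array the smallest value of a detected probe was 4.86 to 4.90. Of 10 ventromedial marker genes, among them Nr5a1 (SF1) and Fezf1, all 10 were measured. In deletion pools 3 were higher and 7 lower, with 0 past a limma adjusted p of 0.05. At an unadjusted limma p under 0.05, 1 was higher and 1 lower, against 4.61% and 4.21% of features. Without another region to compare, their detection does not check the ventromedial label. Sirt1 itself had 7.81, 7.62 and 7.64 in controls, then 7.77, 7.68 and 7.51 in SIRT1 deletion 1 to 3 (log2 fold change -0.03, limma adjusted p = 0.941). Where its probe lies relative to the floxed segment is not known here, so it does not check the labels. In bulk RNA, a change in the number of cells of a type and a change in RNA per cell cannot be told apart.

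No interferon or MHC class I gene passed the test between the groups. Of the 19 measured genes, 0 had a limma adjusted p under 0.05 (the lowest was 0.525), where 15 of 14221 features did so (0.105%, of which 0.0563% of features higher and 0.0492% lower). In SIRT1 deletion pools 13 were higher and 6 lower, with a median log2 fold change of 0.09, and over all features 48.5% were higher with a median of -0.0046. With arrays scaled to their 75th percentile the split was 16 higher and 3 lower: Ddx58, Isg15, Mx2 and H2-K1 were then above 0 and Ifi27 below. At an unadjusted p under 0.05, 2 of the 19 were higher, Oasl2 and B2m, against 4.61% of all features, and 0 were lower, against 4.21% (8.82% in either direction). In 2 genes, Oasl2 and Gbp3, every deletion pool was above every control pool by the brightest probe, which held for 7.04% of features. By second detected probes this also held for B2m and Ifit3, but not for Gbp3. In 0 genes was every deletion pool below every control, against 7.21% of features.

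**Figure D1:**
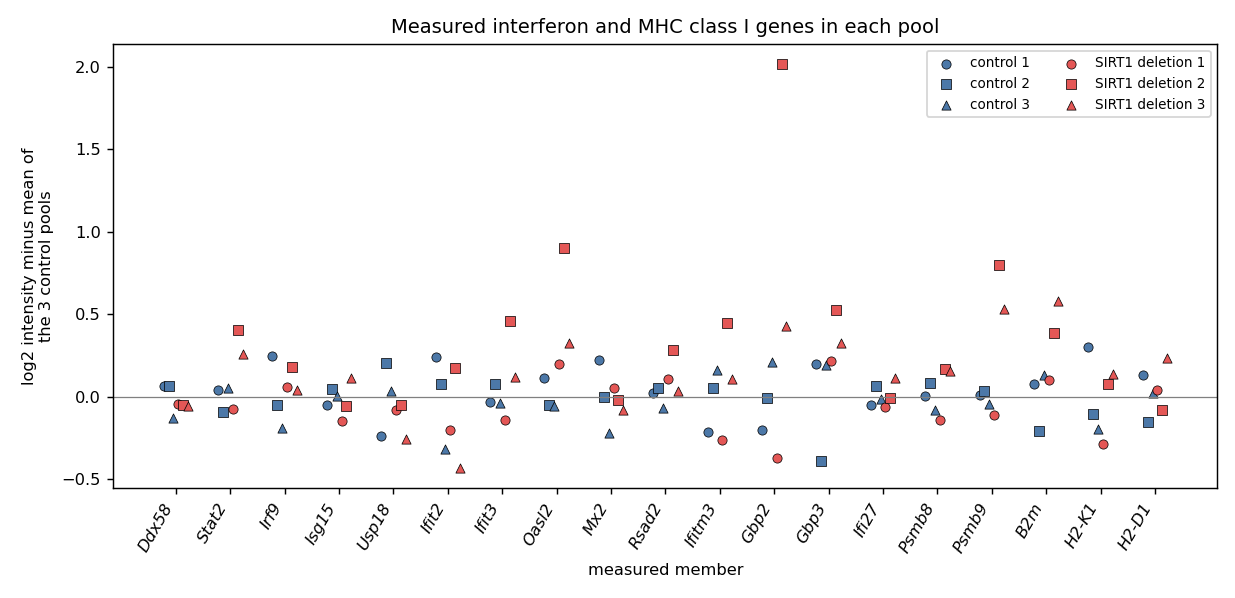
Log2 intensity of each measured gene minus its mean over the 3 control pools (y axis), with 1 point per pool, controls in blue and SIRT1 deletion in red, ordered by role. Squares in red are SIRT1 deletion 2, which lies 2.01 above the control mean for Gbp2, 0.90 for Oasl2 and 0.80 for Psmb9.

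The set was spread unevenly over the pools. SIRT1 deletion 2 was the highest of the 6 pools for 9 of the 19 genes (47.4%), where it was the highest for 19.4% of all features. Those 9, each read by its brightest probe, were Stat2, Oasl2, Rsad2, Ifit3, Ifitm3, Gbp2, Gbp3, Psmb8 and Psmb9. Of these, Ifit3, Gbp3 and Psmb8 had a second detected probe. Its highest pool was SIRT1 deletion 3 for Ifit3, SIRT1 deletion 2 for Gbp3 and SIRT1 deletion 1 for Psmb8. Outside the 9, the second detected B2m probe was highest in SIRT1 deletion 2. The mean deviation of the 19 genes from their own means was -0.02, -0.09 and -0.10 on the log2 scale in the controls. In SIRT1 deletion 1 to 3 it was -0.13, 0.27 and 0.07. By the mean, SIRT1 deletion 1 was below every control pool and SIRT1 deletion 2 above every other pool, while by the median control 3 (-0.11) was below SIRT1 deletion 1 (-0.08). SIRT1 deletion 1 was the lowest pool for 8 genes and the highest for 0. Over all features the mean deviation was within 0.0045 of 0 in every pool. Quantile normalisation, which gives every array the same distribution of values, holds it there, so it does not show how far a short list can vary. Other lists spread more or less than the 19 genes: meningeal markers from -0.64 to 0.98, interferon receptors and kinases from -0.08 to 0.06. Without Gbp2 the mean deviation of SIRT1 deletion 2 was 0.20, still the highest of the 6.

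The guanylate-binding proteins are interferon-inducible GTPases that act against intracellular pathogens, and 1 of them, Gbp2, had the widest range over the pools of the 19 genes. The detected Gbp2 probe (ILMN_3122961) had log2 intensities of 6.59, 6.78 and 6.99 in controls 1 to 3 (mean 6.79 ± 0.20, SD, n = 3). Those of SIRT1 deletion 1 to 3 were 6.41, 8.80 and 7.22 (7.48 ± 1.22). SIRT1 deletion 2 was therefore 4.04-fold the control mean. SIRT1 deletion 3 was above every control by less, SIRT1 deletion 1 was below every control, and the groups overlapped. Its raw signal was 548 in SIRT1 deletion 2 and between 195 and 259 in the other 5 pools. The difference of the groups was 0.69 on the log2 scale (95% limma interval -0.43 to 1.81, adjusted p = 0.687), and without SIRT1 deletion 2 it was 0.03. The range of Gbp2 over the 6 pools, 2.39, was wider than in 99.9% of features. A further 2 Gbp2 probes were not detected on any array.

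Gbp3, which lies on chromosome 3 as Gbp2 does, had 6.29, 5.69 and 6.28 in controls and 6.30, 6.61 and 6.41 in deletion pools. The groups did not overlap, but controls 1 and 3 were nearly level with SIRT1 deletion 1, and control 2 alone was low. The log2 fold change was 0.35 (limma adjusted p = 0.568, 95% interval -0.03 to 0.73), and 0.16 without control 2. It was 0.12 without background correction and 0.16 in the authors' normalized table. A second detected Gbp3 probe gave 0.08, with its highest value, 6.28, in SIRT1 deletion 2 and its lowest, 5.72, in SIRT1 deletion 3. By that probe the groups overlapped.

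Among the effectors that block viral RNA and membranes, Oasl2 had the lowest p of all 19 genes, each read by its brightest probe. With every probe fitted as a feature, the second probes of Ifit3 and B2m had lower unadjusted limma p (0.016 and 0.020 against 0.023). Oasl2, a 2′-5′ oligoadenylate synthetase-like protein (ILMN_2954868), had 5.97, 5.81 and 5.80 in controls and 6.06, 6.76 and 6.18 in deletion pools. All deletion pools were above all controls, with SIRT1 deletion 2 highest by 0.58. Group means were 5.86 ± 0.10 and 6.33 ± 0.37 (SD, n = 3). The log2 fold change was 0.47 (95% interval 0.08 to 0.86), the exact two-sided permutation p was 0.1, the smallest that 3 against 3 pools allow, and the limma adjusted p was 0.525. Without SIRT1 deletion 2 it was 0.26. The size also depended on the background correction: it was 0.17 with none and 0.22 in the authors' normalized table. Of the other 2 Oasl2 probes, 1 was detected on 2 arrays and the other on none.

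Ifit3, an interferon-induced protein with tetratricopeptide repeats, had 8.84, 8.95 and 8.83 in controls and 8.73, 9.33 and 8.99 in deletion pools by its brighter probe. SIRT1 deletion 2 was the highest and SIRT1 deletion 1 the lowest, and the log2 fold change of 0.14 (limma adjusted p = 0.79) became -0.01 without SIRT1 deletion 2. The second detected Ifit3 probe (ILMN_1230458) had 5.95, 5.84 and 5.87 in controls and 5.96, 6.61 and 6.79 in deletion pools, so that SIRT1 deletion 2 and 3 were both high and SIRT1 deletion 1 was level with control 1. With every probe fitted as a feature it had a log2 fold change of 0.57 (limma adjusted p = 0.535). The closely related neighbour Ifit3b can share sequence with these probes, and its part was not tested.

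Ifitm3, a membrane protein that restricts virus entry, had 8.28, 8.55 and 8.66 in controls and 8.24, 8.94 and 8.61 in deletion pools. SIRT1 deletion 2 was again highest and SIRT1 deletion 1 lowest, with a log2 fold change of 0.10 (limma adjusted p = 0.889) that turned to -0.08 without SIRT1 deletion 2. Rsad2 (viperin), which makes an antiviral nucleotide, had 5.96, 5.98 and 5.86 in controls and 6.04, 6.21 and 5.97 in deletion pools. Its log2 fold change was 0.14 (limma adjusted p = 0.678) and the pools overlapped.

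Other effectors had a different order of pools. Ifit2, a relative of Ifit3, had 6.83, 6.66 and 6.27 in controls and 6.38, 6.76 and 6.16 in deletion pools, a log2 fold change of -0.15 (limma adjusted p = 0.824). Leaving out 1 pool moved this between -0.016 (without SIRT1 deletion 3) and -0.32 (without SIRT1 deletion 2). Its second probe gave -0.10, and for neither probe was SIRT1 deletion 2 the highest pool. Mx2, a dynamin-like antiviral GTPase, had a log2 fold change of -0.02 (limma adjusted p = 0.98), with all pools between 5.11 and 5.55. The probes of Ifit1, Oas1a, Mx1 and Bst2, whose products bind viral RNA, make oligoadenylates, trap nucleocapsids and tether virions, were not above background on any array, SIRT1 deletion 2 included. For these genes no level can be given.

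**Figure D2:**
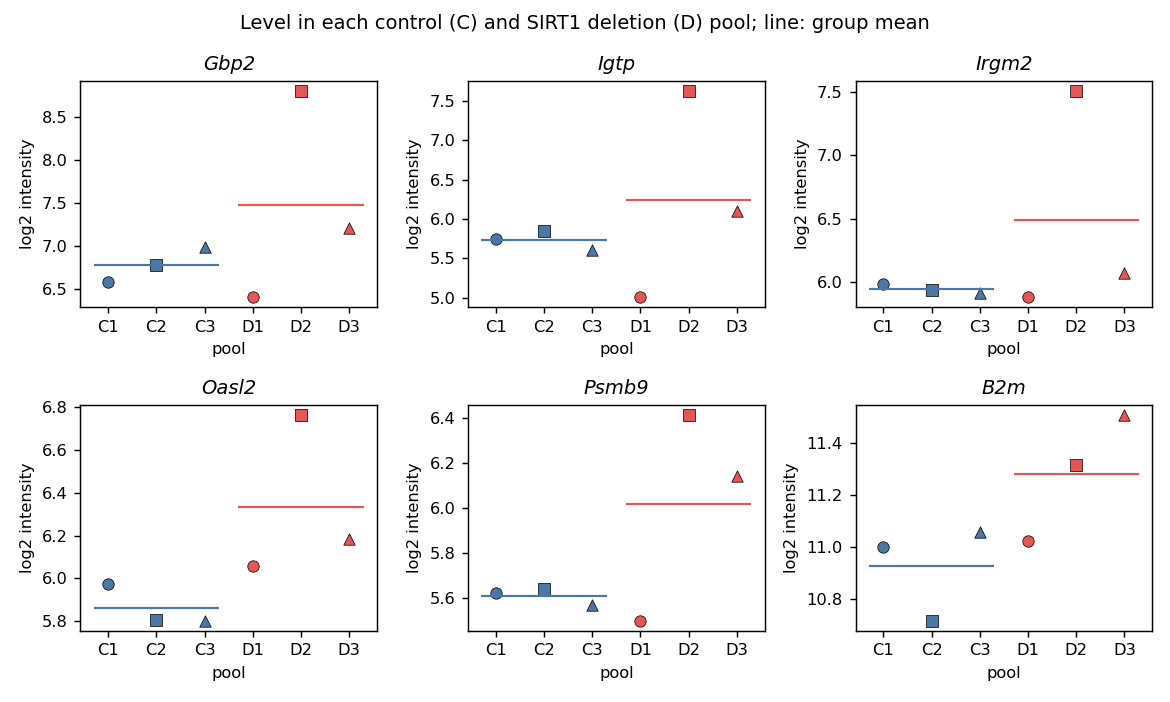
Log2 intensity (y axis) of 6 genes in control pools 1 to 3 (C, blue) and SIRT1 deletion pools 1 to 3 (D, red), with a line at each group mean. Gbp2, Igtp and Irgm2 are highest in D2 (8.80, 7.62 and 7.51). In D3 (7.22, 6.10 and 6.07) they also lie above every control, by less. Psmb9 and B2m are above every control in D2 and D3.

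Neither measured transcription factor of the pathway passed the test. Stat2, which acts with IRF9 in the type I interferon response, had 6.33, 6.19 and 6.34 in controls and 6.21, 6.69 and 6.55 in deletion pools. SIRT1 deletion 2 and 3 were above all controls and SIRT1 deletion 1 was among them. The log2 fold change was 0.20 (limma adjusted p = 0.656, 95% interval -0.09 to 0.49), and 0.09 without SIRT1 deletion 2. Irf9 had 7.75, 7.45 and 7.31 in controls and 7.56, 7.68 and 7.54 in deletion pools (log2 fold change 0.09, limma adjusted p = 0.842). Its highest and lowest pools were both controls, and its second probe gave 0.03. Irf7, the regulator that amplifies interferon production, was not above background on any array.

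The sensor Ddx58 (RIG-I) had 5.03, 5.04 and 4.84 in controls and 4.92, 4.92 and 4.91 in deletion pools, near the limit of detection and above background on 5 arrays. Its log2 fold change was -0.05 (limma adjusted p = 0.885), or 0.06 with 75th percentile scaling. Ifih1 (MDA5), which senses long double-stranded RNA, was not above background on any array. Usp18 is an inhibitor of receptor signalling that also removes the ubiquitin-like modifier ISG15. It had 5.03, 5.47 and 5.29 in controls and 5.18, 5.21 and 5.01 in deletion pools. Its log2 fold change was -0.13 (limma adjusted p = 0.776), with control 2 the highest pool, and -0.027 without that pool or -0.25 without control 1. Isg15, the modifier itself, was above background in 2 controls and 1 deletion pool and had a log2 fold change of -0.03.

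The class I antigen presentation genes were mixed. B2m, the light chain shared by class I molecules, had 11.00, 10.72 and 11.06 in controls and 11.02, 11.31 and 11.51 in deletion pools (ILMN_1216746). SIRT1 deletion 2 and 3 were above every control, SIRT1 deletion 1 lay between controls 1 and 3. Group means were 10.93 ± 0.18 and 11.28 ± 0.24 (SD, n = 3), and the log2 fold change was 0.35 (95% interval 0.03 to 0.68, exact two-sided permutation p = 0.2, limma adjusted p = 0.542). It was 0.24 without SIRT1 deletion 3. The second detected B2m probe had 11.03, 10.65 and 10.82 in controls and 11.05, 11.25 and 11.21 in deletion pools. By this probe the groups did not overlap, though SIRT1 deletion 1 was nearly level with control 1. It gave a log2 fold change of 0.33, with control 2 lowest by both probes. The remaining probe was not detected on any array.

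Psmb9, an inducible catalytic subunit of the immunoproteasome, had 5.62, 5.64 and 5.57 in controls and 5.50, 6.41 and 6.14 in deletion pools. The controls were close together (SD 0.04), SIRT1 deletion 1 was below them and SIRT1 deletion 2 and 3 above. The log2 fold change was 0.41 (limma adjusted p = 0.579, 95% interval -0.05 to 0.86), 0.21 without SIRT1 deletion 2 and 0.67 without SIRT1 deletion 1. It was 0.13 without background correction and 0.17 in the authors' normalized table. Psmb8, another such subunit, had pools between 7.12 and 7.43 and a log2 fold change of 0.06 (limma adjusted p = 0.893). SIRT1 deletion 2 was its highest pool by 0.012. The second Psmb8 probe gave 0.08, but with SIRT1 deletion 2 the lowest pool (5.00) and SIRT1 deletion 1 the highest (5.52). Tap1, a peptide transporter subunit whose promoter window overlaps that of Psmb9, was not above background on any array.

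The class I heavy chains, which pair with B2m, had differences near 0. H2-D1 had 9.75, 9.46 and 9.64 in controls and 9.66, 9.53 and 9.85 in deletion pools (log2 fold change 0.06, 95% interval -0.20 to 0.32, limma adjusted p = 0.891). A second detected H2-D1 probe gave -0.03. H2-K1 had pools between 5.84 and 6.42 and a difference of -0.02 (limma adjusted p = 0.978, 95% interval -0.38 to 0.34), and its second probe gave -0.03. These genes vary between mouse strains and resemble other class I genes, so on a mixed background a probe may not read each allele equally, and that part was not tested. Of the remaining genes, Ifi27, a mitochondrial interferon-induced protein, had pools between 10.45 and 10.63 (log2 fold change 0.01, limma adjusted p = 0.98, and -0.10 by its second probe). Xaf1 was not above background on any array and Rtp4 on 1, by 1 of its 2 probes.

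**Figure D3:**
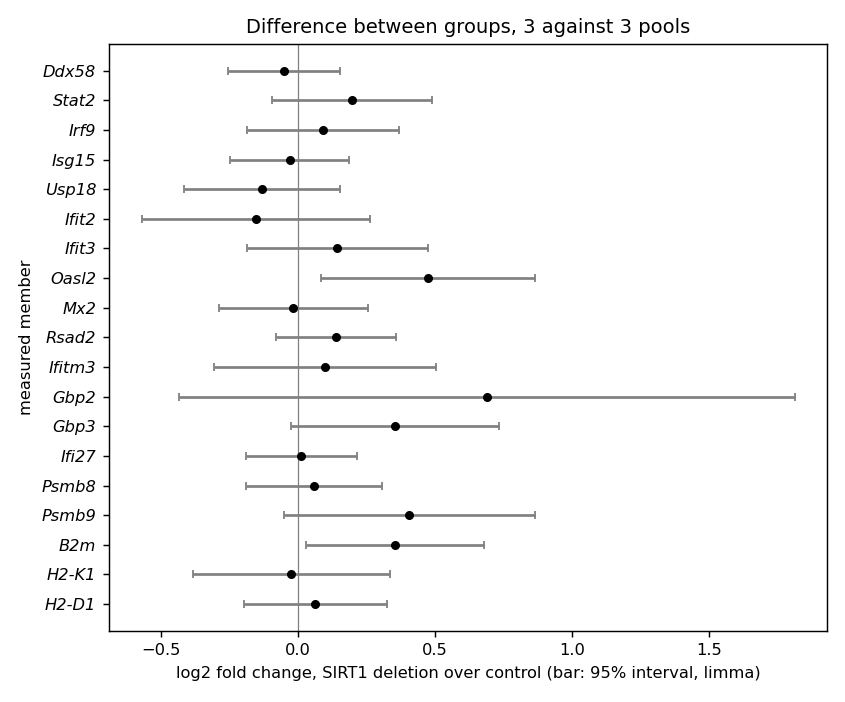
Log2 fold change of SIRT1 deletion over control (x axis) for the 19 measured genes, with 95% limma intervals, ordered by role. The intervals of Oasl2 (0.08 to 0.86) and B2m (0.03 to 0.68) leave out 0 before adjustment, and that of Gbp2 is the widest (-0.43 to 1.81).

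**Figure D4:**
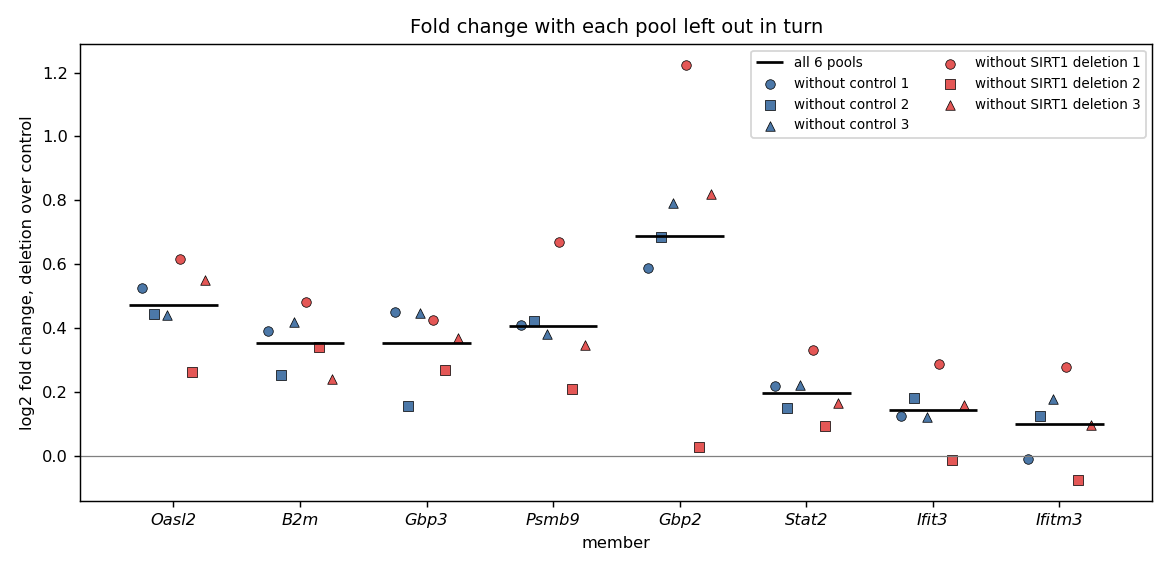
Log2 fold change of deletion over control (y axis) for 8 genes with all pools (black line) and without each pool in turn (points). Without SIRT1 deletion 2 (red squares) Gbp2 is at 0.03, Ifit3 at -0.01 and Ifitm3 at -0.08, while Oasl2 is at 0.26 and B2m at 0.34.

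Leaving out pools showed how the counts rest on them. Without SIRT1 deletion 1, 6 of 19 genes were higher at an unadjusted p under 0.05 (Oasl2, B2m, Psmb9, Stat2, Gbp2 and Ifit3), where 7.37% of features were. Without SIRT1 deletion 2, 1 was, Oasl2, against 2.88% of features, and the median log2 fold change of the 19 was 0.02. Without SIRT1 deletion 3, 1 of 18 was, against 3.18%. Without control 2, 0 of 18 were, against 2.76% of features, and without controls 1 and 3 in turn 3 and 2 were, against 5.01% and 3.94%. With an offset of 1 and with 75th percentile scaling 1 gene was, against 4.37% and 5.62% of features. With an intensity trend and robust prior 4 were, against 5.15%, and with the replicate number as a block 2, against 3.83%. In these fits 0 of the genes passed a limma adjusted p of 0.05 (the lowest was 0.11, without SIRT1 deletion 1).

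Of 51 further interferon-stimulated genes, 46 had a probe and 18 were measured. By group they were 9 higher and 9 lower, with a median log2 fold change of 0.05 and 0 past the adjusted threshold. Dtx3l, a ubiquitin ligase, had the lowest p (log2 fold change 0.27, limma adjusted p = 0.54), and Lgals3bp, a secreted lectin-binding protein, had -0.18 (0.565). By pool, SIRT1 deletion 2 was the highest for 9 of the 18, against the same 19.4% of all features. The mean deviation was 0.22 in SIRT1 deletion 2, 0.01 in SIRT1 deletion 3 and -0.12 in SIRT1 deletion 1, and -0.10, 0.05 and -0.07 in the control pools. Most of the value in SIRT1 deletion 2 came from 2 genes of the list, Igtp and Irgm2. Without them the mean of the remaining 16 was 0.07 in SIRT1 deletion 2, below the 0.08 of control 2, and SIRT1 deletion 2 was the highest for 7 of the 16. The medians over all 18 were 0.13 in SIRT1 deletion 2 and 0.08 in control 2.

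This pair of immunity-related GTPases, named after their values were seen, had the same high pool as Gbp2. Igtp (Irgm3) had 5.75, 5.85 and 5.60 in controls and 5.01, 7.62 and 6.10 in deletion pools, so SIRT1 deletion 2 was 3.71-fold the control mean and SIRT1 deletion 1 below every control. Irgm2 had 5.99, 5.94 and 5.92 in controls and 5.89, 7.51 and 6.07 in deletion pools, 2.94-fold the control mean in SIRT1 deletion 2. These folds follow background correction: the raw signal of Igtp was 308 in SIRT1 deletion 2 and 171 to 182 in controls, and that of Irgm2 was 293 against 184 to 190. When every feature was ranked by the distance of its highest pool above the next, Gbp2 (1.59), Igtp (1.52) and Irgm2 (1.43) held ranks 1, 2 and 3 of 14221, each with SIRT1 deletion 2 as the high pool. In the authors' normalized table the distances were 1.18, 0.85 and 0.79. In all, 5 features stood by 1 or more above the next pool, of which 3 were these genes, 1 was high in control 2 and 1 in SIRT1 deletion 3. Oasl2 (0.58) was at rank 49 over all pools, and at rank 11 among features highest in SIRT1 deletion 2. In the authors' normalized table it was at rank 84 over all pools. The group fold changes of Igtp (0.51, limma adjusted p = 0.793) and Irgm2 (0.54, 0.664) did not pass. Each had 1 probe, and whether the probes of these related genes read each other's RNA was not tested.

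No gene upstream of the response passed an adjusted p of 0.05. Of 18 interferon genes with a probe, 5 were measured (2 higher, 3 lower), and 12 were not detected on any array. Of 14 measured receptors, kinases and transcription factors, 3 were higher and 11 lower, with a median of -0.05 and 0 past either threshold. Tyk2 (0.10) and Jak2 (-0.11), 2 of the receptor-bound kinases, had limma adjusted p of 0.733 and 0.73, where the lowest of the 14 was 0.693. For none of these 14 was SIRT1 deletion 2 the highest pool. Among nucleic acid sensors and adaptors, 4 were higher and 5 lower. Tbk1, the kinase that activates IRF3, had 10.73, 10.75 and 10.81 in controls and 10.56, 10.58 and 10.56 in deletion pools, without overlap, and a limma adjusted p of 0.542. Feedback genes were 3 higher and 3 lower.

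Other class I genes were 11 higher and 6 lower of 17 measured (median 0.10), with 0 past the adjusted threshold. H2-Q2, a nonclassical heavy chain, had 6.74, 6.72 and 6.87 in controls and 6.83, 7.12 and 7.21 in deletion pools (log2 fold change 0.28, limma adjusted p = 0.543). Calr, a chaperone of the peptide-loading complex, had 0.30 (0.516), and Tap2, the partner of Tap1, -0.31 (0.572). SIRT1 deletion 2 was the highest pool for 2 of the 17. Class II genes were 4 higher and 1 lower, and the highest deviation was in SIRT1 deletion 3 (0.33).

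**Figure D5:**
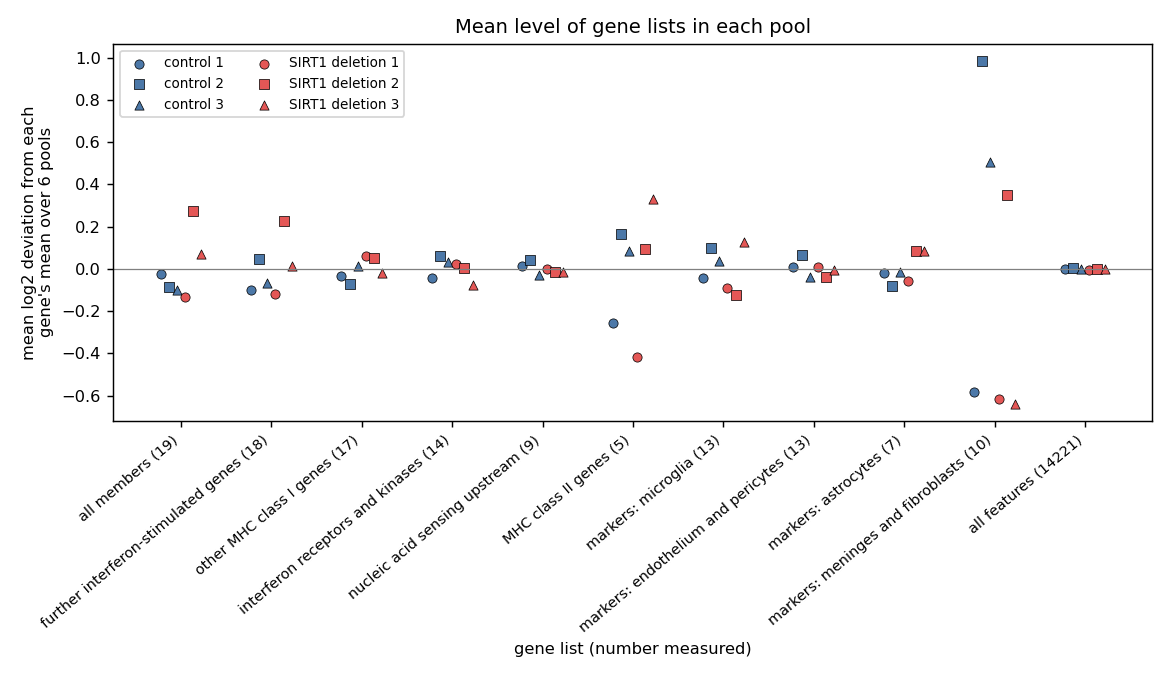
Mean deviation of each gene list from its genes' means over the 6 pools (y axis, log2), with the number of measured genes in brackets. The 19 interferon and class I genes and the further interferon-stimulated genes are highest in SIRT1 deletion 2 (0.27 and 0.22). In that pool microglia markers have -0.12, endothelial and pericyte markers -0.04, astrocyte markers 0.09 and meningeal markers 0.35. Without Igtp and Irgm2 the further genes have 0.07 in SIRT1 deletion 2 and 0.08 in control 2.

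Markers of other cells were set beside these values. Of 13 measured microglia markers 4 were higher and 9 lower, and their mean deviation was -0.12 in SIRT1 deletion 2, the lowest of the 6 pools, and 0.13 in SIRT1 deletion 3, the highest. Their summed intensity lay between 2273 and 2505 in control and between 2245 and 2710 in deletion pools. Endothelial and pericyte markers deviated by -0.04 in SIRT1 deletion 2, with summed intensities of 4383 to 4834 in control and 4435 to 4520 in deletion pools. Astrocyte markers were 6 higher and 1 lower, with deviations of 0.09 and 0.08 in SIRT1 deletion 2 and 3 and below 0 in the other pools, and sums of 27046 to 30862 and 29048 to 32084. All 5 measured neuron markers were lower, with 0 past the adjusted threshold, where 48.5% of features were higher. Their mean deviation was -0.15 in SIRT1 deletion 3 and between -0.01 and 0.08 in the other pools. The part of any of these cell types in the values of SIRT1 deletion 2 and 3 was not tested.

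Of 8 lymphocyte markers on the array, 7 were not detected on any array, and the eighth, Cd3e, had its highest value in control 3. Of 9 markers of monocytes, macrophages and neutrophils 2 were measured and 5 were not detected on any array. The 10 measured meningeal markers had summed intensities of 1586, 4868 and 3530 in controls and 1455, 2965 and 1498 in deletion pools, so SIRT1 deletion 2 was the highest deletion pool but below controls 2 and 3. The 12 measured exocrine pancreas markers were lower in all deletion pools (summed intensity 2791 to 3018 against 4231 to 4868), including SIRT1 deletion 2. For all 12 every deletion pool was below every control, against 7.21% of features. Of them 5 passed a limma adjusted p of 0.05 (the lowest was 0.0035), where 7 of 14221 features were called lower. The part of either in the interferon values was not tested.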

How the data were processed

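Total RNA from pools of ventromedial hypothalamus was labelled as biotinylated cRNA for Illumina arrays, per the labels' protocols. The deposited table holds, per the file headers, the mean bead signal (intensity) of 45281 probes with the detection p-value of each on every array. Its intensities differ in median between arrays and never come near 0, so neither scaling nor background subtraction is seen in them. The authors' second deposited table, an alternative, holds intensity values with the same quantiles in every column. Scanner software and chip are not stated in the sources.

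With limma 3.58.1 (R 4.3.3), intensities were corrected by normexp using the detection p-values, given an offset of 16, quantile normalised and log2 transformed. The offset compresses changes of dim probes. Each gene was represented by its brightest probe past the detection filter. Unnamed probes were kept as features, giving 14221. Groups were compared with lmFit and eBayes, adjusted by Benjamini-Hochberg over all features. The procedure was tested on simulated data.

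Symbols came from the platform annotation, and 1 list gene, Ifi27l1, whose older name resolved to Ifi27, was counted as that gene. The members and gene lists were chosen with earlier results of these data known. Values per pool are given for the 14 measured members of lowest p and those with a range above the 95th percentile, and up to 4 genes of other lists; others were chosen after their values were seen. Same-numbered pools did not deviate together (correlations -0.05 to -0.02). The number of arrays limits the precision. Figures were drawn with matplotlib 3.10.9.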

Additional observations from a re-analysis of the deposited data

How the results depend on the processing

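Of the measured interferon and class I genes, 0 passed a limma adjusted p of 0.05 in any alternative. The median log2 fold change of the set was 0.09, and 0.02 (without SIRT1 deletion 2) to 0.16 with a pool left out. In every alternative it moved by less than the spread between pools (SD 0.11). That spread is larger than the median itself, so this does not show that the median held. The number of its genes higher at an unadjusted p under 0.05 was 2, and 1 with an offset of 1 or with 75th percentile scaling, 3 with an offset of 50 or the mean of detected probes, 4 with an intensity trend and robust prior, and 0 to 6 with 1 pool left out. Features called numbered 15, and 9 without a probe filter, 4 under the stricter detection filter (p under 0.01 on each array), 29 with the trend and robust prior, and 6 to 10 with 1 pool left out. With the replicate number as a block (replicate block) 10 features and 2 of the genes at unadjusted p were called. The numbers are not known to pair the pools. Ddx58 reversed to 0.059 with 75th percentile scaling. With 1 pool left out, Ifitm3 ranged from -0.076 to 0.28, H2-D1 from -0.021 to 0.14, Irf9 from -0.0037 to 0.21 and Ifit3 from -0.014 to 0.29. Chosen after seeing the data, the ranking of Gbp2, Igtp and Irgm2 by their distance in SIRT1 deletion 2 was repeated: they held ranks 1 to 3 among features highest in that pool without background correction (distances 1.03, 0.70 and 0.64), with 75th percentile scaling (1.60, 1.52 and 1.43) and in the authors' table (1.18, 0.85 and 0.79). Without background correction Igtp and Irgm2 were at ranks 3 and 7 over all pools. Fold changes of dim probes were smaller without background correction and in the authors' table (Oasl2 0.17 and 0.22). The cause of these moves was not tested. Of the 9 genes with a probe but no measured level, 8 were above background on no array and Rtp4 on 1, so no change in them can be given.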
